A study of Mus musculus with 16 samples.

Results

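The genes described here encode the proteins of the cell's ribosomes, the 74 cytosolic ribosomal protein genes and the 45 mitochondrial ones that were measured on a set of 16 expression arrays. A gene was counted as cytosolic if the only symbol of its probes was Rplp0, Rplp1, Rplp2 or Rpsa, or was Rpl or Rps followed by a number, and as mitochondrial if it was Mrpl or Mrps followed by a number. The 5 genes of the S6 kinase family that the pattern also catches (Rps6ka3, Rps6ka5, Rps6ka6, Rps6kb2 and Rps6kc1) were dropped. This left 119 genes of the 7114 named genes on the array, read by 218 probes. Of the cytosolic genes, 48 belong by symbol to the large subunit and 26 to the small one, and of the mitochondrial genes 33 and 12.

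The arrays compared mouse embryonic fibroblasts labelled WT with fibroblasts labelled M833, in a study whose title names mutations of Met, the receptor for hepatocyte growth factor. The labels do not say which allele M833 carries, nor the strain, the age of the embryos or the number of cultures. Total RNA was extracted with Trizol and labelled directly, by building dye-carrying dCTP into the cDNA, and each array set 1 cell type against a common reference RNA of unstated make-up. WT and M833 each had 8 arrays, of which 4 carried the sample in Cy5 and the other 4 in Cy3. The labels name no separate cultures behind the 8 arrays, so p-values here measure the spread between arrays, which may be technical.

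A ribosome has a small subunit, which reads the messenger RNA, and a large subunit, which joins amino acids into protein. The cytosolic ribosome is made in the nucleolus from RNA and imported proteins, and its protein genes are among the most strongly expressed of any growing cell. Many of their messenger RNAs start with an unbroken stretch of C and T, the terminal oligopyrimidine motif, through which the mTOR pathway controls their translation. The mitochondrial ribosome has its own protein set, encoded in the nucleus and imported, and makes the respiratory chain subunits that mitochondrial DNA encodes.

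Runs of C and T lie near the annotated starts of several members on which the results turn. Each line gives 20 bases before and 30 bases from the start, read from the RefSeq promoter table (build GRCm38.p6) on the gene's own strand. Capitals mark a run of at least 8 C or T that reaches within 5 bases of the start. Such a run need not lie in the messenger RNA: those of Rps27l and Mrpl12 end before the annotated start. A marked run is therefore not by itself a terminal oligopyrimidine motif.
Rps27 (chr3:90213619-90213668, minus strand): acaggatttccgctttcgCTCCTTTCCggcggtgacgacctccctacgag
Rps24 (chr14:24490658-24490707, plus strand): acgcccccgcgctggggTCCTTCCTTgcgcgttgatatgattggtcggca
Rpl34 (chr3:130730308-130730357, minus strand): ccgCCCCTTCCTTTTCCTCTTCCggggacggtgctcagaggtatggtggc
Rpl35a (chr16:33056462-33056511, plus strand): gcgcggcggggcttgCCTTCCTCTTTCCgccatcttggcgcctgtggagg
Rpl14 (chr9:120571497-120571546, plus strand): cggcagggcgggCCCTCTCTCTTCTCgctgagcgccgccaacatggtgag
Rpl6 (chr5:121204481-121204530, plus strand): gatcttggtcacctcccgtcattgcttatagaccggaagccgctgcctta
Rps27l (chr9:66946066-66946115, plus strand): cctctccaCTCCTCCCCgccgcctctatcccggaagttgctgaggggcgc
Mrpl51 (chr6:125192180-125192229, plus strand): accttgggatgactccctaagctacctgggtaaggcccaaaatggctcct
Mrpl12 (chr11:120484617-120484666, plus strand): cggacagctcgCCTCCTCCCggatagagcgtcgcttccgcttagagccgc
Mrps18b (chr17:35916411-35916460, minus strand): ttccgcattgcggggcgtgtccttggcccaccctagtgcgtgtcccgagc
Mrpl17 (chr7:105811058-105811107, minus strand): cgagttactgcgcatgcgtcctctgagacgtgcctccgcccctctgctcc

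Rps27, Rps24, Rpl34, Rpl35a and Rpl14 carry such a run and Rpl6 has none in this window, although all of them were higher in M833. A run so defined, before or over the start or just after it, was found in 23 of the 59 cytosolic members with an entry in the promoter table (39.0%). It was found in 6 of 39 mitochondrial members (15.4%) and in 12.3% of the 5751 measured named genes with an entry. The mitochondrial runs of Mrpl12, Mrps10, Mrpl9 and Mrpl44 ended before the annotated start, as did the cytosolic runs of Rps27l, Rpl4 and Rpl19. The longest run of a cytosolic member was 21 bases and that of a mitochondrial member 10. Among the cytosolic members with an entry, 5 of the 12 called higher held a run (41.7%) and 18 of the 47 that were not called (38.3%), so the calls were spread over genes with and without it. Within the same windows of 300 bases, CCGGAAG on either strand, the core letters of ETS factor sites, was found in 44.1% of the cytosolic members, 28.2% of the mitochondrial members and 21.5% of the measured named genes. CGCATGCG, the letters of NRF1 sites, was found in 5.1%, 12.8% and 4.9%. These are matches of letters, and both motifs were picked with knowledge of the family.

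The deposited values are ratios that sit on a log2 scale, as judged from their range and spread, with medians between -0.02 and 0.07 over the 16 arrays, so that 0 is close to the middle feature of each array. Positive values are read as sample over reference, a direction that is likely and not stated: the sample titles name the cell type first, and the arrays of both dye orientations correlated positively (r from 0.59 to 0.97), so that 1 orientation had already been turned. How the values were centred is unknown. WT replicate 2 (replicates are numbered in the order of deposit) held 49 values above 8 where no other array held one, and without it the lowest correlation was 0.82. The WT arrays fell into 2 sets, replicates 1, 2, 5 and 6 against 3, 4, 7 and 8, found from the features that are not ribosomal. Deviations from the mean of the arrays of the same cell type and dye orientation correlated at a mean Spearman rho of 0.43 within these sets and -0.55 between them. Subtracting the mean of so few arrays by itself pushes correlations between them below 0, so negative values are partly built in. The same numbers set M833 arrays apart more weakly (0.03 within and -0.24 between). Whether the arrays of a set share an RNA sample is not stated in the labels, so differences are also given against each set of WT arrays where the call or the size moved.

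M833 minus WT was fitted for all 12761 features (7114 genes by symbol, and each probe without a single symbol by itself) with limma and a term for the dye orientation, and p-values were adjusted by Benjamini-Hochberg over all of them. At an adjusted p under 0.05, 25.9% of the features differed, 10.0% higher in M833 and 15.9% lower. No filter on low values was applied, so every member was tested. A value adjusted for dye is the deposited log2 ratio with the fitted dye term of that gene removed.

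In M833, 15 of the 74 cytosolic ribosomal protein genes were higher and none was lower, while the other 59 did not pass the test. With the sets of arrays as a random block in limma, which allows for the likeness of arrays within a set, 2 of the 15 calls remained, and with each set of arrays averaged into 1 value 0 did (3 higher at an unadjusted p under 0.05). At an unadjusted p under 0.05 by limma, 23 were higher (31.1%, against 14.5% of all features) and 2 lower (2.7%, against 23.3%). The share higher was 20.3%, against the 10.0% of all features. The differences were small: the median over the 74 genes was 0.05 on the log2 scale (quartiles 0.00 and 0.09), against a median of -0.03 over all features, and 56 of the 74 (75.7%) lay above 0, against 39.4% of all features. The large subunit gave 10 of 48 and the small subunit 5 of 26. In RNA of whole cultures, fewer cells of a type and less RNA per cell cannot be told apart.

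**Figure D1:**
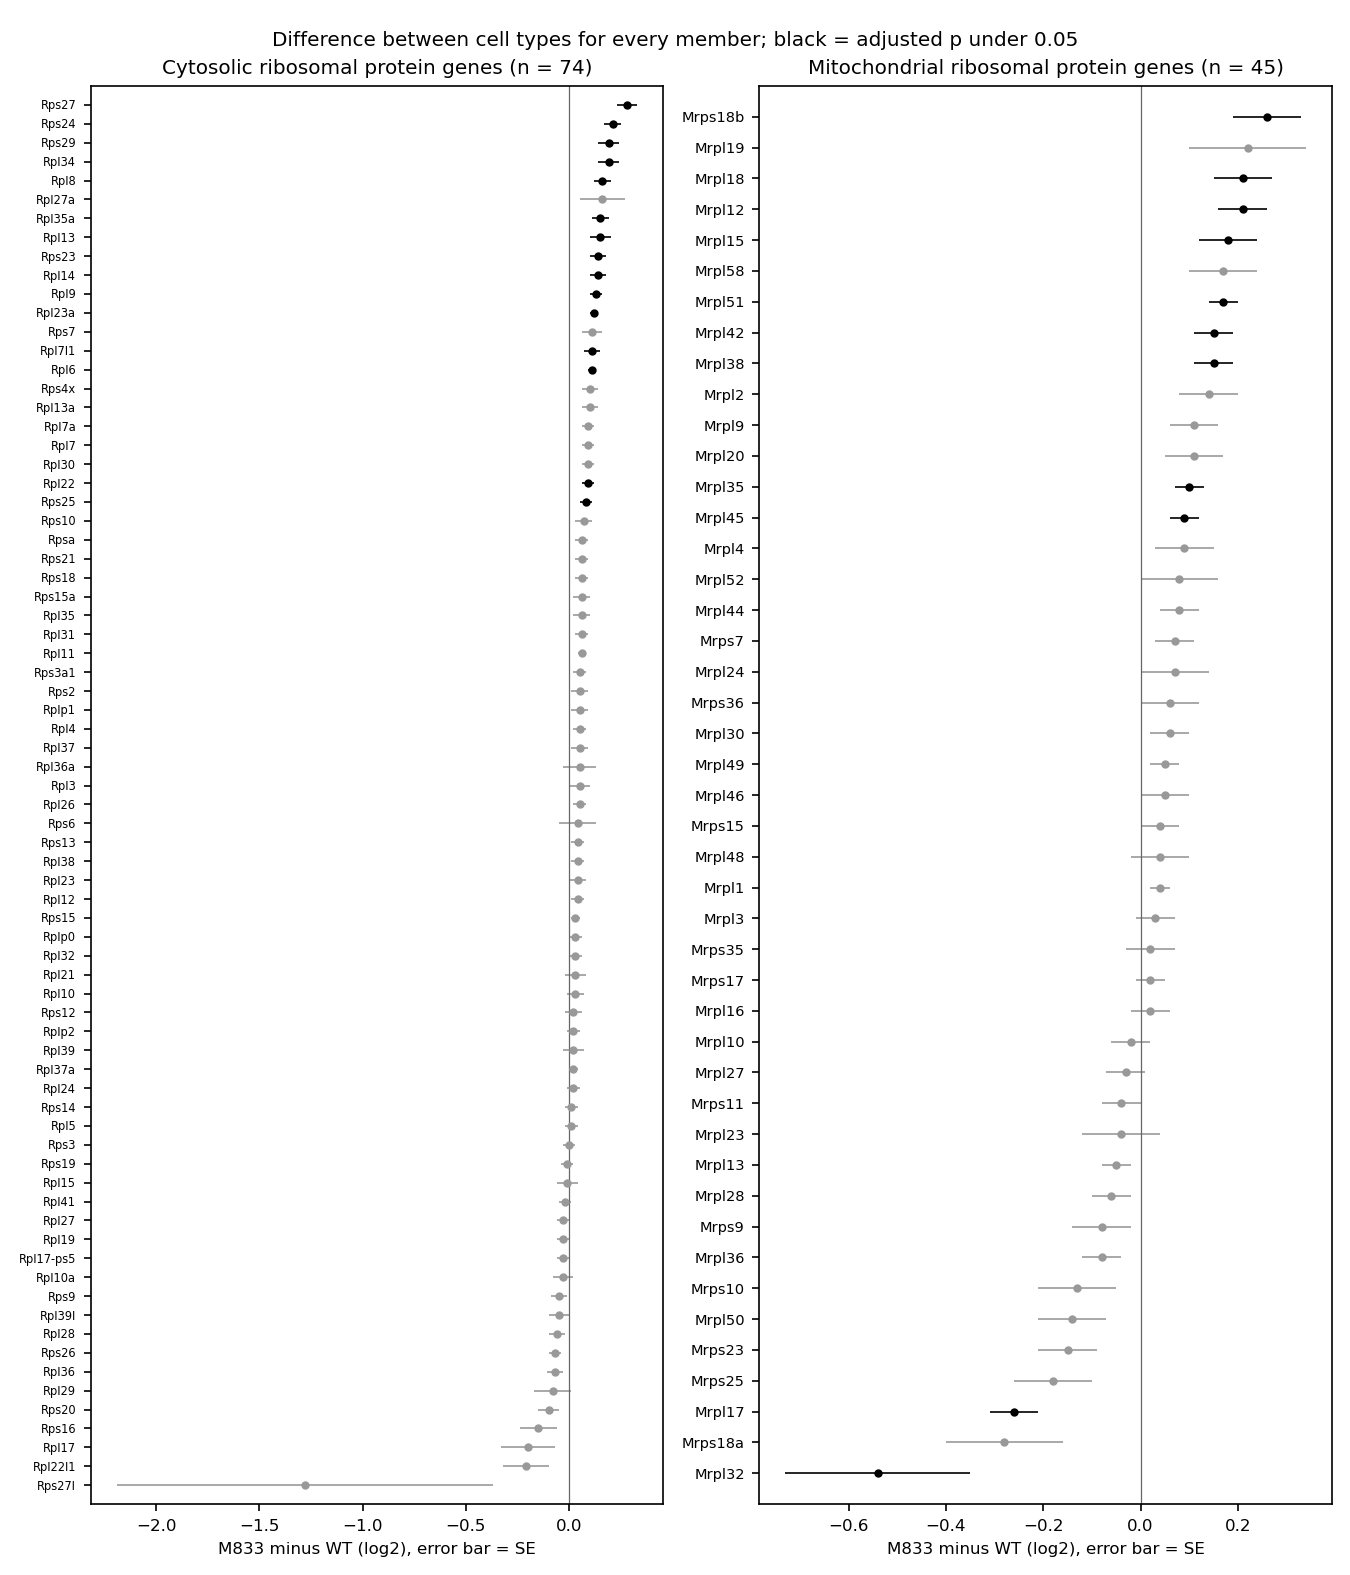
Difference between M833 and WT on the log2 scale (x axis) for each of the 74 cytosolic genes (left) and 45 mitochondrial genes (right), sorted by size; points are fitted differences, bars their standard error, and black marks an adjusted p under 0.05 by limma. The cytosolic genes form a narrow column with 15 black points, all right of 0, and Rps27l far to the left with a wide bar; the mitochondrial genes run from -0.54 for Mrpl32 to 0.26 for Mrps18b.

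Rps27, a zinc-finger protein of the small subunit, had the largest rise among the cytosolic genes. With the sample in Cy5 its deposited log2 ratios were 0.13, 0.14, -0.06 and -0.11 in WT and 0.23, 0.28, 0.19 and 0.30 in M833, and with the sample in Cy3 they were -0.59, -0.57, -0.74 and -0.83 in WT and -0.35, -0.32, -0.37 and -0.39 in M833. In both dye orientations every M833 array lay above every WT array, and the ratios of both cell types were lower in Cy3. After adjustment for dye, M833 exceeded WT by 0.28 ± 0.05 (SE, 8 arrays per cell type; adjusted p = 0.000499 by limma), a rise of 21.0%. WT replicates 3, 4, 7 and 8 were its lowest arrays, and the difference was 0.38 against these and 0.17 against replicates 1, 2, 5 and 6.

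Rps24, a small subunit protein whose gene is mutated in some families with Diamond-Blackfan anaemia, ranged over the WT arrays from 0.07 through a median of 0.22 to 0.27 after adjustment for dye. In M833 it ranged from 0.33 through 0.37 to 0.53, and no array of either cell type reached into the range of the other. It rose by 0.21 ± 0.04 (SE; adjusted p = 0.00146 by limma), and its 2 probes gave 0.20 and 0.22. Rps29, also a Diamond-Blackfan gene, went from -0.45 through -0.38 to -0.28 in WT and from -0.33 through -0.20 to 0.04 in M833, with a difference of 0.19 ± 0.05 (SE; adjusted p = 0.00525). Its lowest M833 array, replicate 8, lay within the WT range and the other 7 above it, and against WT replicates 1, 2, 5 and 6 the difference was 0.16 (adjusted p = 0.0562). Rps23, which sits near the decoding centre, was higher by 0.14 ± 0.04 (SE; adjusted p = 0.00895), and its lowest M833 array, at 0.25, lay below its highest WT array, at 0.29.

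Of the large subunit, Rpl34 ranged from -0.08 through 0.17 to 0.25 in WT and from 0.24 through 0.36 to 0.39 in M833, a rise of 0.19 ± 0.05 (SE; adjusted p = 0.00547 by limma). Its ranges just touched after adjustment and were apart within each dye orientation, and the difference was 0.26 against WT replicates 3, 4, 7 and 8 and 0.12 against the others. Rpl8, which lies close to the peptidyl transferase centre, rose by 0.16 ± 0.04 (SE; adjusted p = 0.00398), from a WT range of -0.28 to -0.09 to an M833 range of -0.08 to 0.13. Rpl35a, another Diamond-Blackfan gene, rose by 0.15 ± 0.04 (SE; adjusted p = 0.00941), from -0.23 to 0.06 in WT to 0.07 to 0.21 in M833. The lowest of its WT arrays, replicate 4, stood apart from the other 7, which began at -0.05.

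Rpl23a, at the mouth of the tunnel through which the new protein leaves, and Rpl6 had small differences and small spreads. Rpl23a ranged from -0.16 through -0.10 to -0.03 in WT and from -0.03 through 0.01 to 0.05 in M833, a rise of 0.12 ± 0.02 (SE; adjusted p = 0.00167 by limma) that its 3 probes gave at between 0.10 and 0.16. Rpl6 ranged from -0.08 through -0.04 to 0.01 in WT and from 0.04 through 0.07 to 0.12 in M833, a rise of 0.11 ± 0.02 (SE; adjusted p = 0.00317) with its 3 probes between 0.09 and 0.13. The rise of Rpl6 was 8.1%, beside a residual SD over the 16 arrays of 0.034 log2 units. Rpl14 (0.14 ± 0.04), Rpl9 (0.13 ± 0.03) and Rpl13 (0.15 ± 0.05) completed the 12 largest differences among the called genes. Every one of their M833 arrays lay above the WT mean, although their ranges overlapped those of WT. All 3 were called against WT replicates 3, 4, 7 and 8 only: Rpl14 gave 0.20 there and 0.07 against WT replicates 1, 2, 5 and 6 (adjusted p = 0.126 by limma), Rpl9 0.19 and 0.07 (0.128) and Rpl13 0.23 and 0.06 (0.285). Rpl27a gave a larger difference, 0.16 ± 0.11 (SE; adjusted p = 0.31), and was not called.

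The other 3 called genes fell outside the 12 named by size and were named after their values were seen: Rpl7l1, a paralogue of Rpl7, at 0.11 ± 0.04, Rpl22, which has a paralogue of its own in Rpl22l1, at 0.09 ± 0.03, and Rps25 at 0.08 ± 0.03. These and Rpl13 lost their call when single arrays were left out, with little change in size. Rps25 (0.07 to 0.09) lost it without WT replicate 7 or M833 replicate 4 or 6. Rpl13 (0.13 to 0.18) lost it without any 1 of WT replicates 4, 6, 7 and 8 or of M833 replicates 3, 4, 5, 6, 7 and 8. Rpl22 (0.08 to 0.10) lost it without WT replicate 2, 3, 4, 5 or 8 or M833 replicate 1, 2, 4, 6, 7 or 8. Rpl7l1 (0.09 to 0.13) lost it without WT replicate 1, 2, 5, 6 or 7 or M833 replicate 2, 4, 5, 7 or 8. The other 11 cytosolic calls kept theirs in all 16 such fits. Against WT replicates 3, 4, 7 and 8 and then against the other WT arrays, Rpl7l1 gave 0.06 and 0.16, Rpl22 0.11 and 0.07, and Rps25 0.09 and 0.08. Of these, Rpl7l1 was called in the second comparison, Rpl22 in the first and Rps25 in neither.

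In both dye orientations every M833 array lay above every WT array for 7 cytosolic genes, and below for 1, Rps27l. Over all features these shares were 4.01% above and 6.49% below. The 7 were Rps27, Rps24, Rpl34, Rpl8, Rpl35a, Rpl23a and Rpl6. Of the mitochondrial genes, Mrpl51 and Mrpl15 lay above in this way and none below. Several of these separations held only by a hair. At the printed digits the nearest WT and M833 arrays were equal for Rps27l in Cy3 (-0.18), Rpl23a in Cy5 (0.18) and Mrpl15 in Cy3 (-0.64). In Cy5 they stood at 0.63 and 0.64 for Rpl34 and at 0.28 and 0.29 for Rpl35a.

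**Figure D2:**
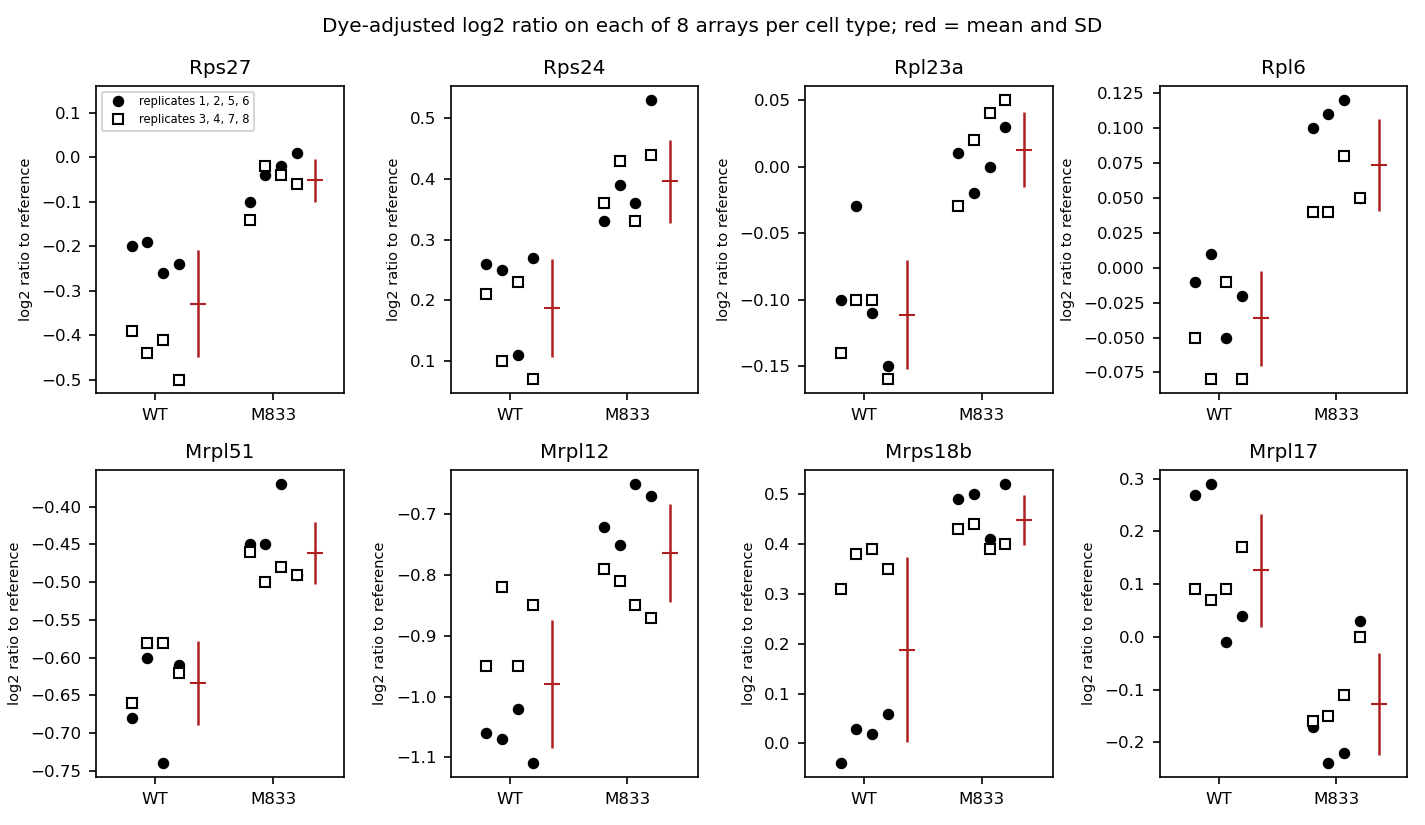
Log2 ratio to the reference after adjustment for dye (y axis, a scale of its own in each panel) on each of the 8 WT and 8 M833 arrays, for 4 cytosolic genes (top) and 4 mitochondrial genes (bottom); filled circles are replicates 1, 2, 5 and 6, open squares replicates 3, 4, 7 and 8, and red bars the mean and SD. Rps24, Rpl6 and Mrpl51 show no overlap between cell types, Mrpl17 lies lower in M833, and the WT circles of Mrps18b, at -0.04 to 0.06, lie far below its WT squares, at 0.31 to 0.39.

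Of the 45 mitochondrial genes, 9 were higher in M833 (10.0% of all features were) and 2 were lower (4.4%, against 15.9% of all features), and 34 did not pass the test. With the sets of arrays as a random block 3 of the 11 calls remained, and with each set of arrays averaged into 1 value 0 did (3 higher and 2 lower at an unadjusted p under 0.05). At an unadjusted p under 0.05 by limma, 12 were higher (26.7%) and 5 lower (11.1%), beside the 14.5% and 23.3% of all features. The median was 0.05 (quartiles -0.04 and 0.11), and 30 of the 45 lay above 0. The large subunit held 8 of the 9 genes that rose and both that fell, out of 33, and the small subunit 1 of 12. Medians were 0.07 for the large and -0.01 for the small subunit, and the difference between the subunits was not tested.

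Mrpl12, which forms the flexible stalk that recruits translation factors, was among the lowest genes against the reference. It ranged from -1.11 through -0.99 to -0.82 in WT and from -0.87 through -0.77 to -0.65 in M833, a rise of 0.21 ± 0.05 (SE; adjusted p = 0.00402 by limma). All 8 M833 arrays lay above the WT mean, and the lowest of them reached into the WT range. Against WT replicates 1, 2, 5 and 6 its difference was 0.30, and against replicates 3, 4, 7 and 8 it was 0.13 and not called (adjusted p = 0.0638). Mrpl51 ranged from -0.74 through -0.61 to -0.58 in WT and from -0.50 through -0.47 to -0.37 in M833, with no overlap, and rose by 0.17 ± 0.03 (SE; adjusted p = 0.000561). Its difference was 0.15 against 1 set of WT arrays and 0.20 against the other.

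Mrps18b, one of several mitochondrial homologues of the bacterial S18 protein and the one small subunit gene called, ranged from -0.04 through 0.19 to 0.39 in WT and from 0.39 through 0.44 to 0.52 in M833. It rose by 0.26 ± 0.07 (SE; adjusted p = 0.00987 by limma). The size came largely from 1 set of WT arrays. Against replicates 1, 2, 5 and 6 the difference was 0.43. Against replicates 3, 4, 7 and 8 it was 0.09 and not called (adjusted p = 0.0654 by limma). Mrpl18, which also has a role in carrying 5S RNA into mitochondria, rose by 0.21 ± 0.06 (SE; adjusted p = 0.011), Mrpl42 by 0.15 ± 0.04 (SE; adjusted p = 0.0115) and Mrpl38 by 0.15 ± 0.04 (SE; adjusted p = 0.0125). In each of these 3 all 8 M833 arrays lay above the WT mean. All 3 were called against WT replicates 1, 2, 5 and 6, where they gave 0.28, 0.16 and 0.18. Against WT replicates 3, 4, 7 and 8, Mrpl18 gave 0.14 (adjusted p = 0.123 by limma), Mrpl42 0.15 (0.0504) and Mrpl38 0.12 (0.0675), so none was called there. The size of Mrpl42 was nearly the same against both sets, and its adjusted p lay just above the threshold in the second.

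Mrpl15, Mrpl35 and Mrpl45 made up the rest of the genes that rose. Mrpl35 rose by 0.10 ± 0.03 (SE; adjusted p = 0.023 by limma) and kept its call in every fit that left out 1 array. It gave 0.14 against WT replicates 3, 4, 7 and 8 and 0.06, not called, against the others, as Mrpl45 gave 0.12 and 0.07. Mrpl15 was called only against WT replicates 1, 2, 5 and 6 (0.24, and 0.13 against the others). Mrpl15 (0.18 ± 0.06 SE, adjusted p = 0.0497) lost its call without WT replicate 1, 2, 5, 6, 7 or 8 or M833 replicate 1, 2, 3, 4, 5 or 6, with differences from 0.12 to 0.20. Mrpl45, which holds the ribosome at the inner membrane, was higher by 0.09 ± 0.03 (SE; adjusted p = 0.0399) and lost its call without WT replicate 4, 5, 6 or 8 or M833 replicate 1, 2, 4, 5, 6 or 7 (0.08 to 0.11).

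The 2 mitochondrial genes that fell differed in how evenly they did so. Mrpl17 ranged from -0.01 through 0.09 to 0.29 in WT and from -0.24 through -0.15 to 0.03 in M833, a fall of 0.26 ± 0.05 (SE; adjusted p = 0.00203 by limma), and all 8 M833 arrays lay below the WT mean, with the ranges overlapping from -0.01 to 0.03. Against the sets of WT arrays its difference was -0.28 and -0.23. Mrpl32, whose protein the m-AAA protease must cut before it joins the ribosome, ranged from -0.17 through 0.35 to 1.17 in WT and from -0.40 through -0.14 to 0.31 in M833. Its difference was -0.54 ± 0.19 (SE; adjusted p = 0.0451), with WT replicates 1 and 2 at 1.17 and 1.07 and the other 6 at 0.58 or less. It was -0.89 against WT replicates 1, 2, 5 and 6 and -0.20 against replicates 3, 4, 7 and 8, and its call was lost without WT replicate 1, 2, 5, 6 or 7 or M833 replicate 1, 2, 4, 6 or 8, over a range of -0.64 to -0.43. Among the genes that were not called, Mrps18a, another S18 homologue, gave -0.28 ± 0.12 (SE; adjusted p = 0.0873).

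With the sets of arrays as a random block, in limma, 4.4% of all features remained higher and 7.08% lower, and the 2 cytosolic calls that remained were Rps27 (adjusted p = 0.006) and Rpl23a (0.0476). Rps24 (0.0515) and Rpl6 (0.0575) came just above the threshold. The 3 mitochondrial calls that remained were Mrpl51 (0.0225), Mrpl12 (0.031) and Mrps18b (0.0338). None of the 26 changed sign.

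Against each set of WT arrays alone the cytosolic genes gave different pictures, both with the same 8 M833 arrays. Against WT replicates 3, 4, 7 and 8, 28 cytosolic genes were higher and 1 lower, where 13.8% of all features were higher and 20.1% lower, and the cytosolic median was 0.09. Against WT replicates 1, 2, 5 and 6, 10 were higher and 7 lower, where the shares of all features were 14.5% and 21.8%, and the cytosolic median was 0.01. Of the 15 genes called on all arrays, 13 were called in the first of these fits and 9 in the second. The 7 lower ones were Rpl22l1 (-0.52), Rps20 (-0.20), Rpl10a (-0.15), Rpl28 (-0.14), Rpl36 (-0.12), Rps9 (-0.12) and Rps26 (-0.11), named after their values were seen. Of the WT arrays by themselves, 69 of the 74 cytosolic genes lay higher in WT replicates 1, 2, 5 and 6 than in the other WT arrays, by a median of 0.10, against 26 of the 45 mitochondrial genes, by a median of 0.02. Over all 12761 features 7171 lay higher in that set, by a median of 0.03.

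Rpl22l1, the paralogue of Rpl22, followed the sets of WT arrays closely. With the sample in Cy5 its deposited log2 ratios were 0.58 and 0.65 in WT replicates 1 and 2, -0.00 and -0.01 in replicates 3 and 4, and 0.01 to 0.14 in the 4 M833 arrays. With the sample in Cy3 they were -0.10 and 0.08 in WT replicates 5 and 6, -0.59 and -0.61 in replicates 7 and 8, and -0.51 to -0.44 in M833. The M833 arrays thus lay close to WT replicates 3, 4, 7 and 8 (difference 0.09) and below the others (-0.52). Over all arrays its difference of -0.21 ± 0.11 (SE; adjusted p = 0.188 by limma) did not pass the test. Rpl17 gave 0.00 against the first of these sets and -0.40 against the other.

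**Figure D3:**
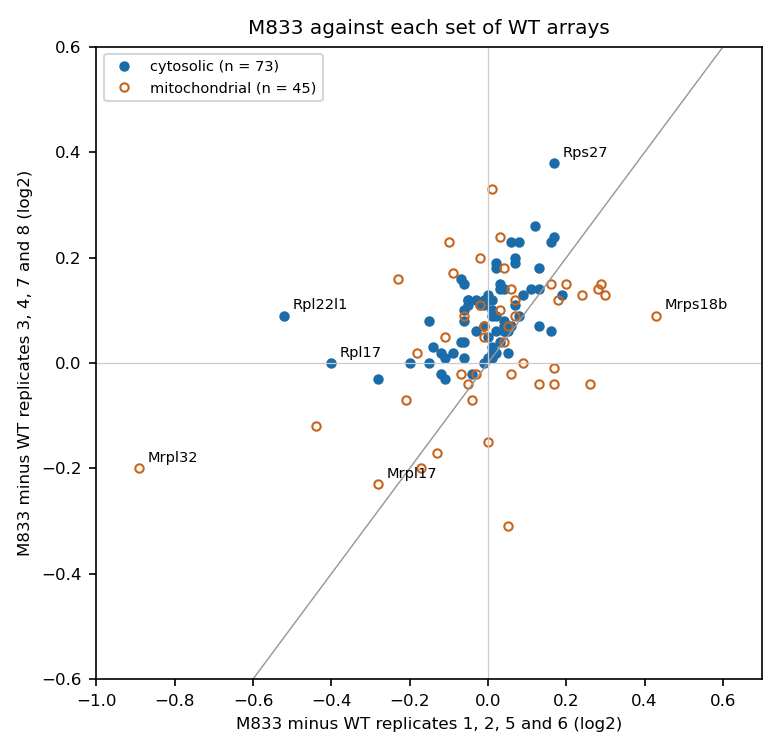
M833 minus WT on the log2 scale when the WT arrays are replicates 1, 2, 5 and 6 (x axis) or replicates 3, 4, 7 and 8 (y axis), a point per gene, with the line of equal values; both axes use the same M833 arrays. Rps27l, at -2.20 on the x axis, lies outside the plot. Most cytosolic points lie above the line, as do Rpl22l1 (-0.52 and 0.09) and Mrpl32 (-0.89 and -0.20), while Mrps18b (0.43 and 0.09) lies below it.

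On single arrays, the median over the 74 cytosolic genes, adjusted for dye, lay between -0.01 and 0.05 in WT replicates 1, 2, 5 and 6, between -0.07 and -0.04 in the other WT arrays, and between 0.01 and 0.09 in M833. The first WT set overlapped M833 and the second lay below both. The median over the 45 mitochondrial genes lay between -0.22 and -0.07 in WT and between -0.16 and -0.06 in M833, with wide overlap. Cytosolic minus mitochondrial was 0.04 to 0.18 in WT (0.12 ± 0.06 SD, n = 8) and 0.11 to 0.25 in M833 (0.17 ± 0.04 SD, n = 8). The cell types overlapped in this measure, and it was not tested.

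**Figure D4:**
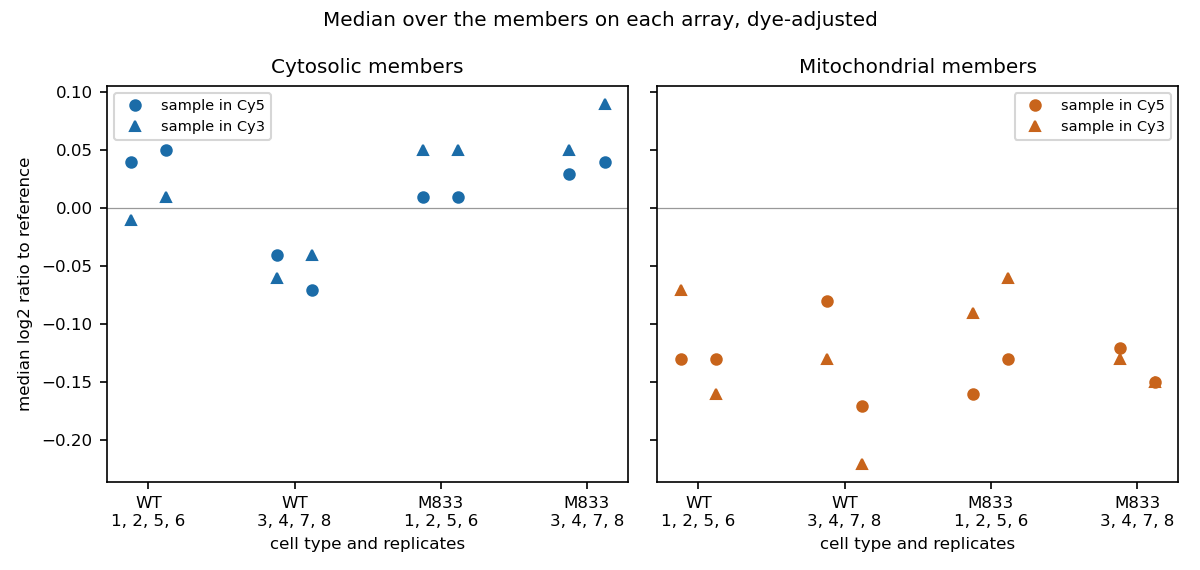
Median log2 ratio to the reference over the 74 cytosolic genes (left) and the 45 mitochondrial genes (right) on each array after adjustment for dye, by cell type and set of arrays; circles are arrays with the sample in Cy5 and triangles those with the sample in Cy3. The cytosolic medians of WT replicates 3, 4, 7 and 8, at -0.07 to -0.04, lie below all others, and the mitochondrial medians overlap throughout.

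The cytosolic genes were measured with less spread than the mitochondrial ones. The residual SD over the 16 arrays, after the terms for cell type and dye, had a median of 0.066 log2 units for the cytosolic genes (quartiles 0.055 and 0.089), 0.096 for the mitochondrial genes (0.076 and 0.135) and 0.108 for all features (0.078 and 0.164). It lay above the median of all features for 8 of 74 cytosolic genes and for 20 of 45 mitochondrial ones. Cytosolic genes were averaged over more probes: 49 of the 74 were read by 2 or more probes, Rpl3 by 7, against 5 of the 45 mitochondrial genes. Among genes with 1 probe the medians were 0.071 for 25 cytosolic, 0.093 for 40 mitochondrial and 0.113 for all such named genes. Single probes gave 0.075, 0.097 and 0.11.

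Rpl11, which binds MDM2 when ribosome assembly is disturbed, had the lowest residual SD of the cytosolic genes, 0.033, followed by Rpl6 (0.034) and Rpl37a (0.035). The highest were Rps27l (1.969), Rpl17 (0.283) and Rpl22l1 (0.244). Among the mitochondrial genes Mrpl1 (0.035), Mrps17 (0.044) and Mrpl51 (0.050) were the lowest, and Mrpl32 (0.406), Mrpl19 (0.256) and Mrps18a (0.247) the highest. The SD of the fitted differences over genes was 0.18 for the cytosolic, 0.15 for the mitochondrial genes and 0.21 for all features. Without Rps27l the cytosolic value was 0.09, so which of the ribosomes had the wider differences turned on that 1 gene.

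Ribosomal protein genes had larger dye effects than most features. Ratios with the sample in Cy5 exceeded those with the sample in Cy3 in 64 of 74 cytosolic genes, by a median of 0.25, and in 41 of 45 mitochondrial genes, by a median of 0.19, against 7103 of the 12761 features and a median of 0.02. Rpl34 had a dye effect of 0.77, Rps24 of 0.72 and Rps27 of 0.66, several times their differences between cell types, whereas Rpl8 (0.01) and Rpl11 (0.00) had next to none. Without the dye term the cytosolic residual SD had a median of 0.153 and the mitochondrial 0.148, against 0.141 for all features. The lower spread of the cytosolic genes was therefore seen only after the dye term was fitted.

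**Figure D5:**
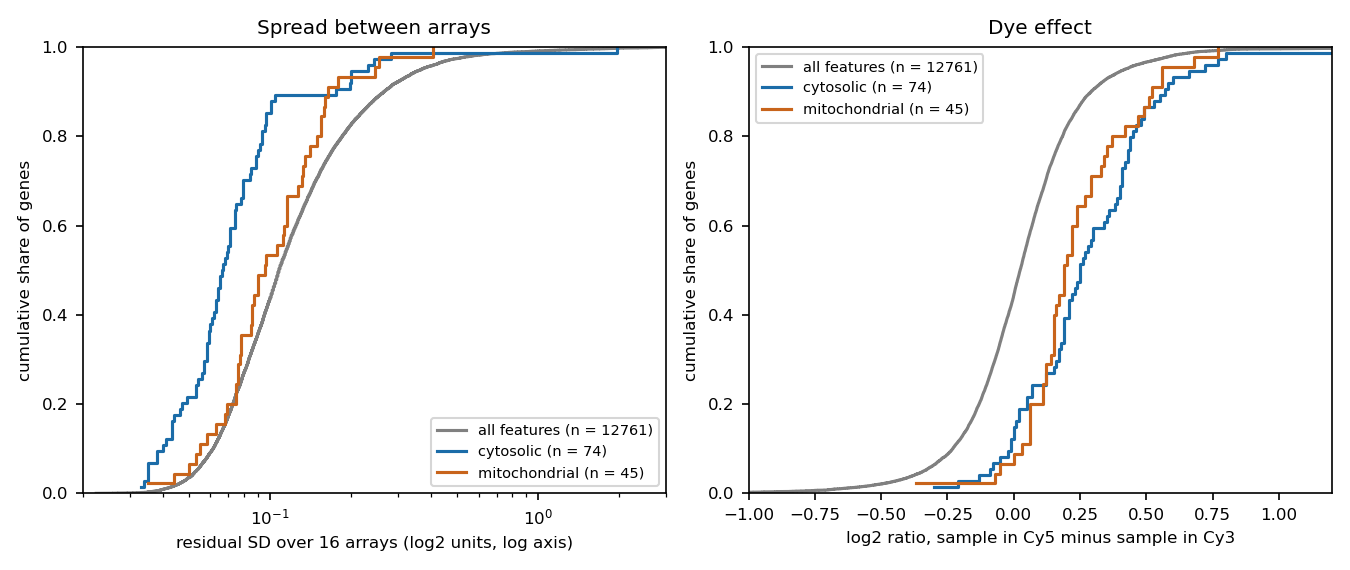
Cumulative share of genes (y axis) by residual SD over the 16 arrays (left, log2 units on a log axis) and by dye effect (right, log2 ratio with the sample in Cy5 minus Cy3), for cytosolic genes, mitochondrial genes and all features. The cytosolic curve lies left of the others in spread (medians 0.066, 0.096 and 0.108), and both ribosomal curves lie right of all features in dye effect (medians 0.25, 0.19 and 0.02).

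Rps27l, a paralogue of Rps27 that p53 induces, lay on the other side of 0 from Rps27. With the sample in Cy5 its deposited log2 ratios were 0.49, 8.29, 0.48 and 0.40 in WT and -0.09, 0.11, 0.25 and 0.19 in M833, and with the sample in Cy3 they were -0.05, -0.18, 0.18 and 0.15 in WT and -0.18, -0.31, -0.23 and -0.23 in M833. The value of 8.29 was 1 of the 49 above 8 on WT replicate 2. In both dye orientations every M833 array nonetheless lay below every WT array. In Cy3 this held by less than the printed digits show, with WT replicate 6 and M833 replicate 5 both at -0.18. With all arrays the difference was -1.28 ± 0.91 (SE; adjusted p = 0.324 by limma) and did not pass the test. With values above 8 taken as missing it was -0.30 ± 0.06 (SE, 7 WT and 8 M833 arrays; adjusted p = 0.00195), and without WT replicate 2 it was also -0.30 (adjusted p = 0.00188). With those values missing and the sets of arrays as a random block, an alternative chosen after seeing the data, it was -0.29 (adjusted p = 0.0429). Its single probe, the similarity of the 2 genes and the choice of array to leave out limit how firmly this can be read.

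Against the reference the cytosolic genes lay close to 0 and to each other. Their mean levels over both cell types ran from -0.47 to 0.68 with an SD of 0.21 over genes, and 2 of 74 (2.7%) lay more than 0.5 from 0, against 13.3% of the mitochondrial genes and 21.2% of all features. The median was -0.01 in WT and 0.03 in M833. Rps2 (0.68) and Rplp1 (0.48), a stalk protein, were among the highest, and Rps27l stood at 0.58 through its 1 extreme value. Rpl28 (-0.47), Rps14 (-0.37) and Rps6 (-0.33), the target of the S6 kinases, were the lowest. Rps2 ranged from 0.52 to 0.81 in WT and from 0.67 to 0.73 in M833, with overlap.

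The mitochondrial genes spread more widely against the reference, from -0.92 to 0.50 with an SD of 0.31, and their median was -0.13 in both cell types. Mrps10 (0.50), Mrpl45 (0.48) and Mrps18b (0.32) were the highest. Mrps25 (-0.92), Mrpl12 (-0.87) and Mrps36 (-0.57), whose protein was later placed in the oxoglutarate dehydrogenase complex, were the lowest. Mrps25 lay between -1.04 and -0.64 in WT and between -1.32 and -0.85 in M833. Its difference of -0.18 ± 0.08 (SE; adjusted p = 0.0937 by limma) did not pass the test.

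Of the 49 cytosolic genes with several probes, 22 had probes that differed in the sign of M833 minus WT, with a median range between probes of 0.10, as had 1 of 5 mitochondrial genes, Mrpl50 (-0.36 and 0.08). Of the called cytosolic genes 6 had several probes and none of these was among the 22, while the other 9 called genes had a single probe and allow no such check. Of the 25 cytosolic genes with 1 probe 9 were called, against 6 of the 49 with several. The largest ranges named were those of Rpl15 (-0.26 to 0.19), Rpsa (-0.14 to 0.22), Rps6 (-0.12 to 0.20) and Rpl27a (0.00 to 0.32). The other 18 were Rps2, Rps14, Rpl37a, Rpl27, Rpl41, Rps3, Rpl5, Rplp2, Rpl10, Rpl32, Rplp0, Rps15, Rpl12, Rpl23, Rpl3, Rpl4, Rps3a1 and Rpl30, with fitted differences between -0.03 and 0.09. Cytosolic ribosomal protein genes have many processed pseudogenes, and a spotted probe may bind the RNA of close copies, so values of single genes such as Rpl22l1, Rpl7l1, Rpl39l or Rpl17-ps5 are uncertain.

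The other constituents and the makers of both ribosomes were read from lists chosen with earlier results of these data known. Fau (0.02 ± 0.03 SE), which encodes the small subunit protein eS30, and Dap3 (-0.05 ± 0.05 SE), a GTPase of the mitochondrial small subunit, did not pass the test (adjusted p = 0.723 and 0.499 by limma). Of 74 genes of ribosome biogenesis measured, 22 were higher in M833 and 3 lower, beside the 10.0% and 15.9% of all features. With the sets of arrays as a random block 14 of the 22 and 1 of the 3 remained. The median was 0.11, against a median of 0.05 for the cytosolic ribosomal proteins. Most of these genes gave higher differences against WT replicates 1, 2, 5 and 6, the reverse of the cytosolic ribosomal protein genes. Against WT replicates 3, 4, 7 and 8 and then the others, Heatr1 gave 0.14 and 0.55 and Nop56 0.06 and 0.44. Fbl went the other way, with 0.53 and 0.33. Noc2l, of the large subunit assembly line, rose by 0.45 ± 0.05 (SE), Fbl, the methyltransferase of box C/D ribonucleoproteins, by 0.43 ± 0.05, Polr1a, the largest subunit of RNA polymerase I, by 0.38 ± 0.06, and Dkc1, the pseudouridine synthase, by 0.36 ± 0.04. Adjusted p of these 4 lay between 4.21e-06 and 0.000126. The 3 that fell were Rrp36 (-0.63 ± 0.18), Gnl2 (-0.17 ± 0.04) and Imp3 (-0.11 ± 0.04). With the block Rrp36 (adjusted p = 0.173 by limma) and Imp3 (0.277) lost their call. Against WT replicates 3, 4, 7 and 8 and then the other WT arrays, Rrp36 gave -0.36 and -0.90, and Gnl2 -0.24 and -0.09.

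Of 19 genes of mitochondrial translation and ribosome assembly, 4 rose and 1 fell, the remaining 14 were not called, and the median was 0.03. Shares over all features were 10.0% higher and 15.9% lower. All 4 rises and not the fall remained with the sets of arrays as a random block. Lrpprc, which stabilises mitochondrial messenger RNA, rose by 0.23 ± 0.03 (SE; adjusted p = 6.18e-05 by limma). Tsfm (0.22 ± 0.04) and Gfm1 (0.19 ± 0.04), elongation factors, and Tfam (0.19 ± 0.03), which packs mitochondrial DNA, rose as well. Tfb1m, which methylates the RNA of the small mitochondrial subunit, fell by 0.30 ± 0.08 (SE; adjusted p = 0.0139). With the block its adjusted p was 0.118, and its difference was -0.17 against WT replicates 3, 4, 7 and 8 and -0.44 against the other WT arrays.

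Markers of other cells and of growth moved with the cell types beside these results. All 7 measured macrophage markers fell in M833 (median -0.86), with a mean over the list of -0.40 to -0.34 on the WT arrays and -1.54 to -1.29 on the M833 arrays. Lyz2 fell by 1.67, C1qb fell by 1.45 and C1qa fell by 1.17. Of 9 fibroblast markers 6 fell (median -0.21; list means -0.22 to -0.05 in WT and -0.55 to -0.38 in M833), Col1a2 by 0.87 and Col3a1 and Fn1 by 0.38 each. Of 8 markers of cycling cells 6 rose (median 0.62), Plk1 by 0.83, Mcm6 by 0.75 and Top2a by 0.68. The list means were -0.70 to -0.24 in WT and -0.05 to 0.13 in M833. Mki67 (-0.11) and Ccna2 (0.16) were not called. Against WT replicates 3, 4, 7 and 8 and then the others, Plk1 gave 1.08 and 0.59 and Mcm6 1.08 and 0.41. Top2a gave 1.01 and 0.35 in these fits, and Ccna2 0.52 and -0.2. All 3 skeletal muscle markers rose (median 0.61; list means -2.85 to -2.18 in WT and -2.27 to -1.72 in M833), while none of 4 red cell and 5 epithelial markers was called. With the sets of arrays as a random block all 7 macrophage and all 6 cycling calls remained, 3 of the 6 fibroblast calls (Col1a1, Vim and Lum were lost) and 1 of the 3 muscle calls (Tnnt1 and Myl4 were lost). Mylpf, the one kept, gave 0.53 against WT replicates 3, 4, 7 and 8 and 1.55 against the others, and Myl4 gave 0.31 and 0.04. The part of these cells and of growth in the differences of the ribosomal protein genes was not tested. Against the reference the fibroblast markers lay on both sides, with a median log2 ratio of 0.04 in WT and -0.16 in M833. Fn1 (2.03 in WT and 1.65 in M833), Pdgfrb (1.12 and 1.04) and Vim (1.04 and 0.85) lay above it. Dcn (-2.56 and -2.8), Lum (-2.41 and -2.57) and Col3a1 (-0.91 and -1.29) lay below it. The red cell markers, at list means of -5.07 to -4.62, were far below the reference.

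The sizes above depend on how each array is centred. Centring each array on its own median moved the median of all features from -0.03 to -0.01 and the share of higher among all calls from 38.7% to 50.3%, with 12.5% of features higher and 12.4% lower. With it 25 cytosolic genes were higher and none lower, and 11 mitochondrial genes higher and 2 lower, and all 26 calls were kept. Scaling the arrays to a common spread gave 9.94% of features higher and 16.8% lower, with 23 cytosolic genes higher and 3 lower (Rpl28, Rps26 and Rpl36, at -0.14, -0.13 and -0.10) and 5 mitochondrial genes higher and 3 lower. It kept 14 of the 15 cytosolic calls, all but Rpl13, and 7 of the 11 mitochondrial ones, losing Mrpl12, Mrpl15, Mrpl42 and Mrpl51.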

How the data were processed

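The 16 dual-colour arrays of WT and M833 fibroblasts were used. The deposited values are log2 ratios of each sample to a common reference, 1 per probe; the scale was taken from the values. Centring and background treatment by the authors are not stated in the labels. The submitters' processing notes name limma, with no version. Gene names came from GEO's platform table, whose annotation is dated. It gave 1 symbol for 9600 of the 15247 probes, several for 214 and none for 5433, and 9492 were matched by Entrez number to the current gene table, with 0 symbols changed. Probes of a gene were averaged, and 13 probes that pair a ribosomal symbol with a second symbol were left out. M833 minus WT was fitted with limma 3.58.1 (R 4.3.3; lmFit and eBayes) with a dye term over 12761 features, with Benjamini-Hochberg adjustment and a threshold of 0.05. The script was checked on simulated data. The values had no missing entries, arrays carry no counts, and the number of arrays limits the precision.

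The members, the lists and the alternatives were chosen with earlier results of these data known. Of each ribosome, genes were named as the 12 largest called differences, the 3 highest and 3 lowest levels, the 3 largest and 3 smallest residual SDs, and genes whose probes differ in sign; of the other lists, up to 4 called genes per direction and 3 of each marker list. A few more genes of the other lists and of the marker lists were named after their values were seen. The sets of arrays are the best of 18 splits, balanced for dye, of each cell type. No list was tested as a set. Promoter runs and motifs were counted in windows of 300 bases of the RefSeq table, taking the longest run over a gene's starts. The 31 alternatives changed centring, scaling, the dye term, weights, moderation, blocks, arrays and probes. Other software was Python 3.11.15 with pandas 2.3.3, numpy 2.4.6 and matplotlib 3.10.9.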

Additional observations from a re-analysis of the deposited data

Results flagged for a closer look

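Of 122 groups of 8 arrays examined among the members named, 14 held an array that stood apart from the others by Dixon's criterion. The criterion flags about 1 in 20 groups by chance. Some members were named for a large residual SD, which an outlying array raises, so the count cannot be judged against that rate. The widest gap was that of Rps27l on WT replicate 2, at 7.61 after adjustment for dye, with the other 7 WT arrays between -0.28 and 0.87. The same array stood apart for Mrpl50 (0.51, the others -0.07 to 0.15) and for Rpl23a (-0.03, the others -0.16 to -0.10). WT replicate 1 stood apart for Rpl15 (0.33, the others 0.04 to 0.16) and Rpl11 (-0.08, the others -0.17 to -0.12), and WT replicate 4 for Rpl35a (-0.23, the others -0.05 to 0.06).

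In M833, replicate 8 stood apart for Rps6 (-0.81, the others -0.39 to -0.08), Rplp0 (-0.19, the others -0.06 to 0.03) and Rpl8 (0.13, the others -0.08 to 0.01). Replicate 4 stood apart for Rpl27a (1.06, the others 0.12 to 0.39) and Mrpl19 (0.80, the others -0.29 to 0.16). Single arrays stood apart for Mrpl15 (replicate 7, 0.03, the others -0.49 to -0.36), Mrpl51 (replicate 5, -0.37, the others -0.50 to -0.45) and Rpl28 (replicate 2, -0.60, the others -0.52 to -0.46).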

How the results depend on the processing

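No difference of a named member that passed the test changed sign under the alternatives run, and robust moderation left all 26 calls in place. Main counts were 15 cytosolic genes higher and 0 lower, 9 mitochondrial higher and 2 lower, and 3301 features that differed. Leaving out 1 array gave 12 to 18 and 0 to 2 cytosolic, 7 to 9 and 1 to 2 mitochondrial, and 2878 to 3295 features. The cytosolic lower genes were Rps27l without WT replicate 2, and Rps20 and Rps26 (-0.12 and -0.09) without WT replicate 8. Array weights gave 24 cytosolic genes higher, centring 25, and scaling 23 higher and 3 lower, with 5 mitochondrial higher. Over all features 12.5% were higher with centring and 9.94% with scaling, while the share with array weights is not given here. The fit of each probe by itself gave 29 cytosolic higher. Its units were probes, 168 of them cytosolic, so this number cannot be set beside counts of genes, and its share over all probes is not given. Without the dye term 2 cytosolic and 2 mitochondrial genes were higher and 1 mitochondrial lower (2000 features). Arrays with the sample in Cy5 alone gave 0, 0 and 1 (835 features), where 8 and 5 were higher and 0 and 5 lower at an unadjusted p under 0.05 by limma, and those in Cy3 alone gave 2, 1 and 0 (1100 features). The random block gave 2, 3 and 0 (1465 features). The mean of each set of arrays as 1 replicate gave 0 features, so 0 cytosolic or mitochondrial calls, against 1675 features, 3 cytosolic genes higher and 3 mitochondrial higher and 2 lower at an unadjusted p under 0.05.

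Without WT replicates 1, 2, 5 and 6, 28 cytosolic genes were higher and 1 lower, their median was 0.087 and the SD of their differences 0.094. Without WT replicates 3, 4, 7 and 8, 7 cytosolic and 6 mitochondrial genes were lower, where 21.8% of all features were. The cytosolic median was 0.007 and the SD 0.28, with Rps27l at -2.2 among the differences. Without M833 replicates 1, 2, 5 and 6, 5 cytosolic and 1 mitochondrial genes were higher and 1 mitochondrial lower (1685 features that differed), and without M833 replicates 3, 4, 7 and 8, 5, 3 and 1 (1858 features). With values above 8 missing, 1 cytosolic gene was lower and the SD was 0.094, and without Rps27l it was 0.086. The cause of these shifts was not tested. No paired analysis was possible because the labels give no replicate numbers. Signal over background was not analysed here, so which members lie near background is not known.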
